A study of Mustela putorius furo with 2 samples.

Results

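The genes described here are the insulin-like growth factor binding protein genes IGFBP2, IGFBP3, IGFBP4, IGFBP5 and IGFBP7 with the receptor gene IGF1R and the ligand gene IGF2, in the developing cerebral cortex of the ferret. They are 7 of the 21317 genes for which the data hold at least 1 unique molecular identifier (UMI, a tag that marks 1 captured RNA molecule). They were chosen by name, after their levels across cell classes had been seen. Their levels are therefore given as descriptions, without tests, and tests were run only on other genes of the same pathway.

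Insulin-like growth factors are secreted ligands that act through IGF1R, a receptor tyrosine kinase that signals through insulin receptor substrates to phosphoinositide 3-kinase, AKT and mTOR. The binding proteins are secreted and hold the ligands in extracellular fluid or matrix, and proteases such as PAPPA and HTRA1 release them by cutting the binding proteins. In rodent and human brain this system is known for control of progenitor growth, of oligodendrocyte production and of neuron size and survival, and IGFBP7, which binds the ligands only weakly, is known as a matrix protein of blood vessels.

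The study measured single-cell RNA from wild-type ferrets at postnatal day 3, taking dorsal cortex, as 2 replicate samples of 1 group, with no treatment and no second genotype. The cortex was cut into pieces and dissociated with papain, and droplet libraries were made on the 10x Genomics Chromium platform. The cells of both replicates lie in 1 count matrix, where the barcodes carry 2 suffixes that were read as 2 libraries, called A and B here. The labels do not tie a suffix to a replicate and do not say that the replicates came from separate animals, so the spread between libraries may be technical.

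Library A held 9782 cells and 41836475 UMIs (median 3602.5 per cell), and library B held 5005 cells and 18907140 UMIs (median 3068 per cell). The libraries share 21 cell barcodes. No cell types were annotated in the files used here, so cells were assigned by UMIs of marker genes, none of them a gene described here. Of 14773 cells kept, 8832 (59.8%) fell into 1 of 19 classes, 672 (4.55%) passed gates of several compartments and were left out, and 5269 (35.7%) passed none. Endothelial-like cells made up 0.961% of library A and 4.29% of library B, so sums over all cells of a library weigh blood vessels differently. The genes with the highest fold over all other cells, gate markers aside, included some known from the cell type of the class. These were SLC38A5, RAMP2 and SOX18 in endothelial-like cells, VTN and BGN in perivascular-like cells, and PCDH15 and LHFPL3 in cells like oligodendrocyte precursors. They were picked by name, and other genes ranked higher. APOA1 led the perivascular-like cells (37110 CPM, against 141 CPM in other cells). LYZ and CDH7 stood above RAMP2 in endothelial-like cells, and POSTN and APOD above PCDH15 in cells like oligodendrocyte precursors. Glial, progenitor and neuronal classes are called by their gate genes. Inhibitory cells with no UMI of LHX6, NXPH1 or ADARB2 had mixed leading genes (BCAS1 beside NPY and CXCL14) and are given no type. The ependymal-like class held 2 cells in library A and is not used, which leaves 18 classes. The erythroid-like class (11 and 12 cells in libraries A and B) disagreed between libraries for several genes, and no pattern is described for it. It stays among the 18 classes in the order of classes, in the correlations and in the fit.

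Relative to the share of cells, IGFBP7 and IGFBP4 were concentrated in vascular cells and IGFBP5 in EGFR/OLIG1 progenitors. On the same measure IGFBP2 was concentrated in the EGFR/OLIG1 progenitors and in EOMES cells, and IGF1R was spread over all classes. The endothelial-like cells held 24.9% of the IGFBP7 UMIs of library A and 38.4% of those of library B. The EGFR/OLIG1 progenitors, 1.80% of the cells in library A and 1.76% in library B, held 16.4% and 17.8% of the IGFBP5 UMIs. They held 7.15% and 6.80% of the IGFBP2 UMIs. Most IGFBP5 UMIs lay elsewhere: non-dividing EOMES cells held 20.6% and 12.3% of them, and cells that passed no gate 35.1% and 36.2%. Non-dividing EOMES cells held 18.9% and 17.9% of the IGFBP2 UMIs, against 11.03% and 9.55% of the cells. IGF1R UMIs lay closer to the share of cells, with 0.904% and 4.06% of them in endothelial-like cells.

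**Figure D1:**
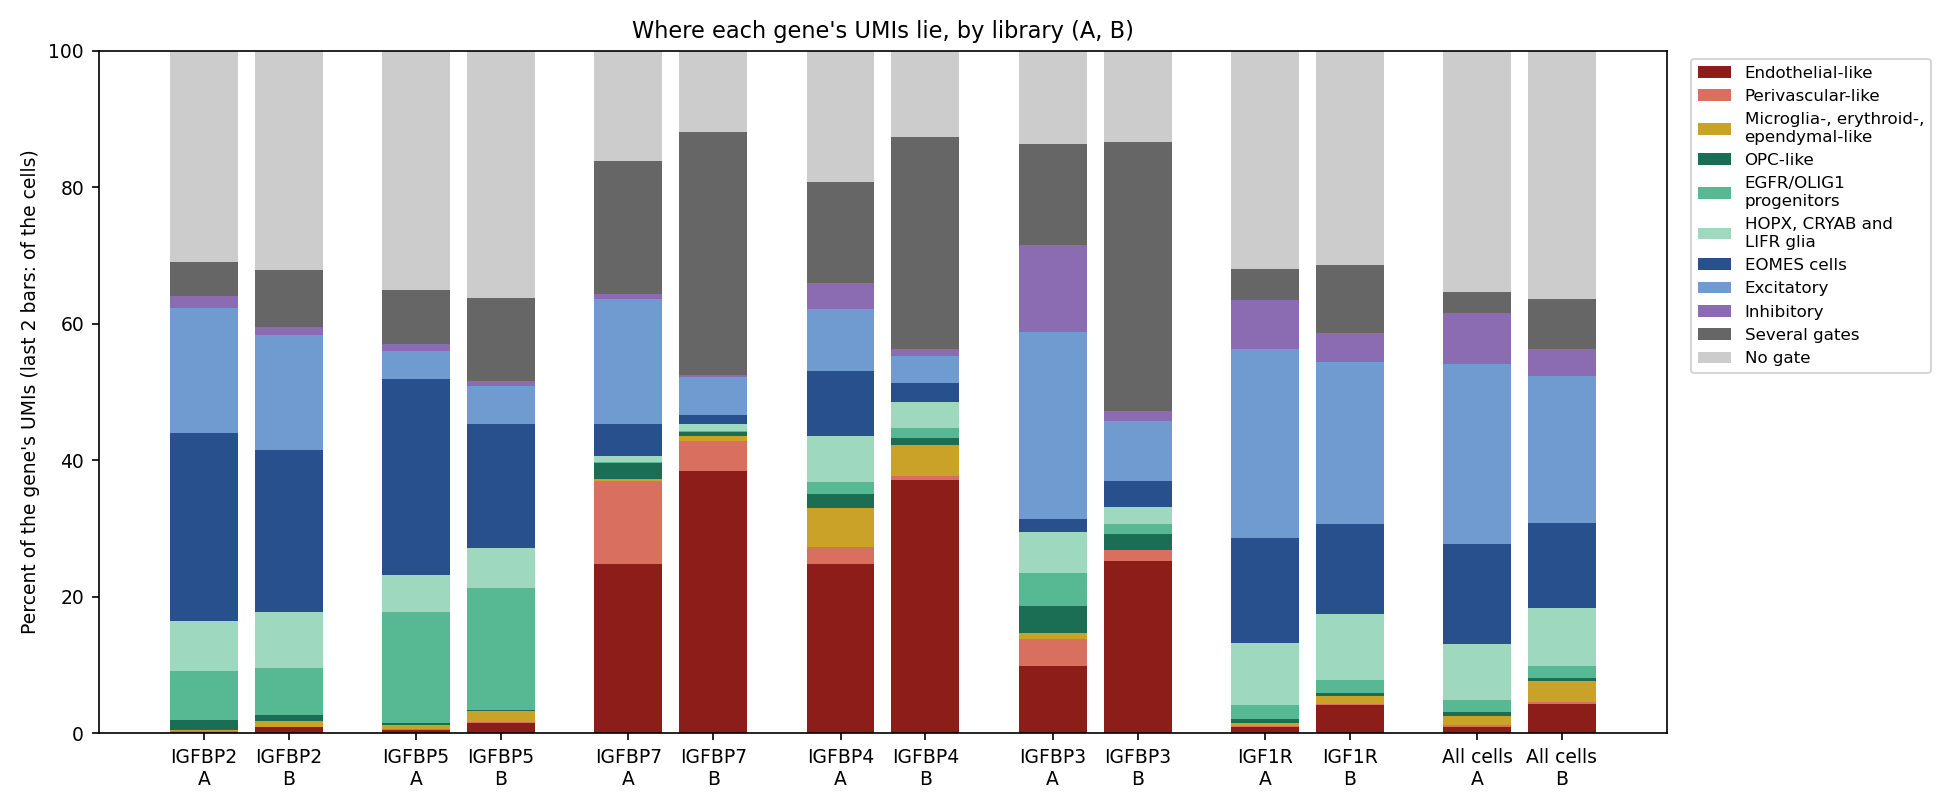
Stacked bars give the percent of each gene's UMIs found in each group of classes, in cells that passed gates of several compartments and in cells that passed none, for libraries A and B; the last pair of bars gives the percent of cells. Endothelial-like cells (dark red) hold 24.9% and 38.4% of IGFBP7 UMIs against 0.961% and 4.29% of cells, and EGFR/OLIG1 progenitors (mid green) hold 16.4% and 17.8% of IGFBP5 UMIs against 1.80% and 1.76% of cells.

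Levels are given as CPM, the UMIs of a gene per 1000000 UMIs summed over the cells of a class in 1 library, and are compared between classes within a gene only. Intervals on them are exact 95% Poisson intervals that cover counting error only. A share of cells with a UMI depends on the UMIs per cell, so each is also given as the share expected if every cell had 1500 UMIs, called the thinned share. Free RNA in droplets can put UMIs of any gene into any cell, so each gene is also given in a class where it was lowest or that should lack it.

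**Figure D2:**
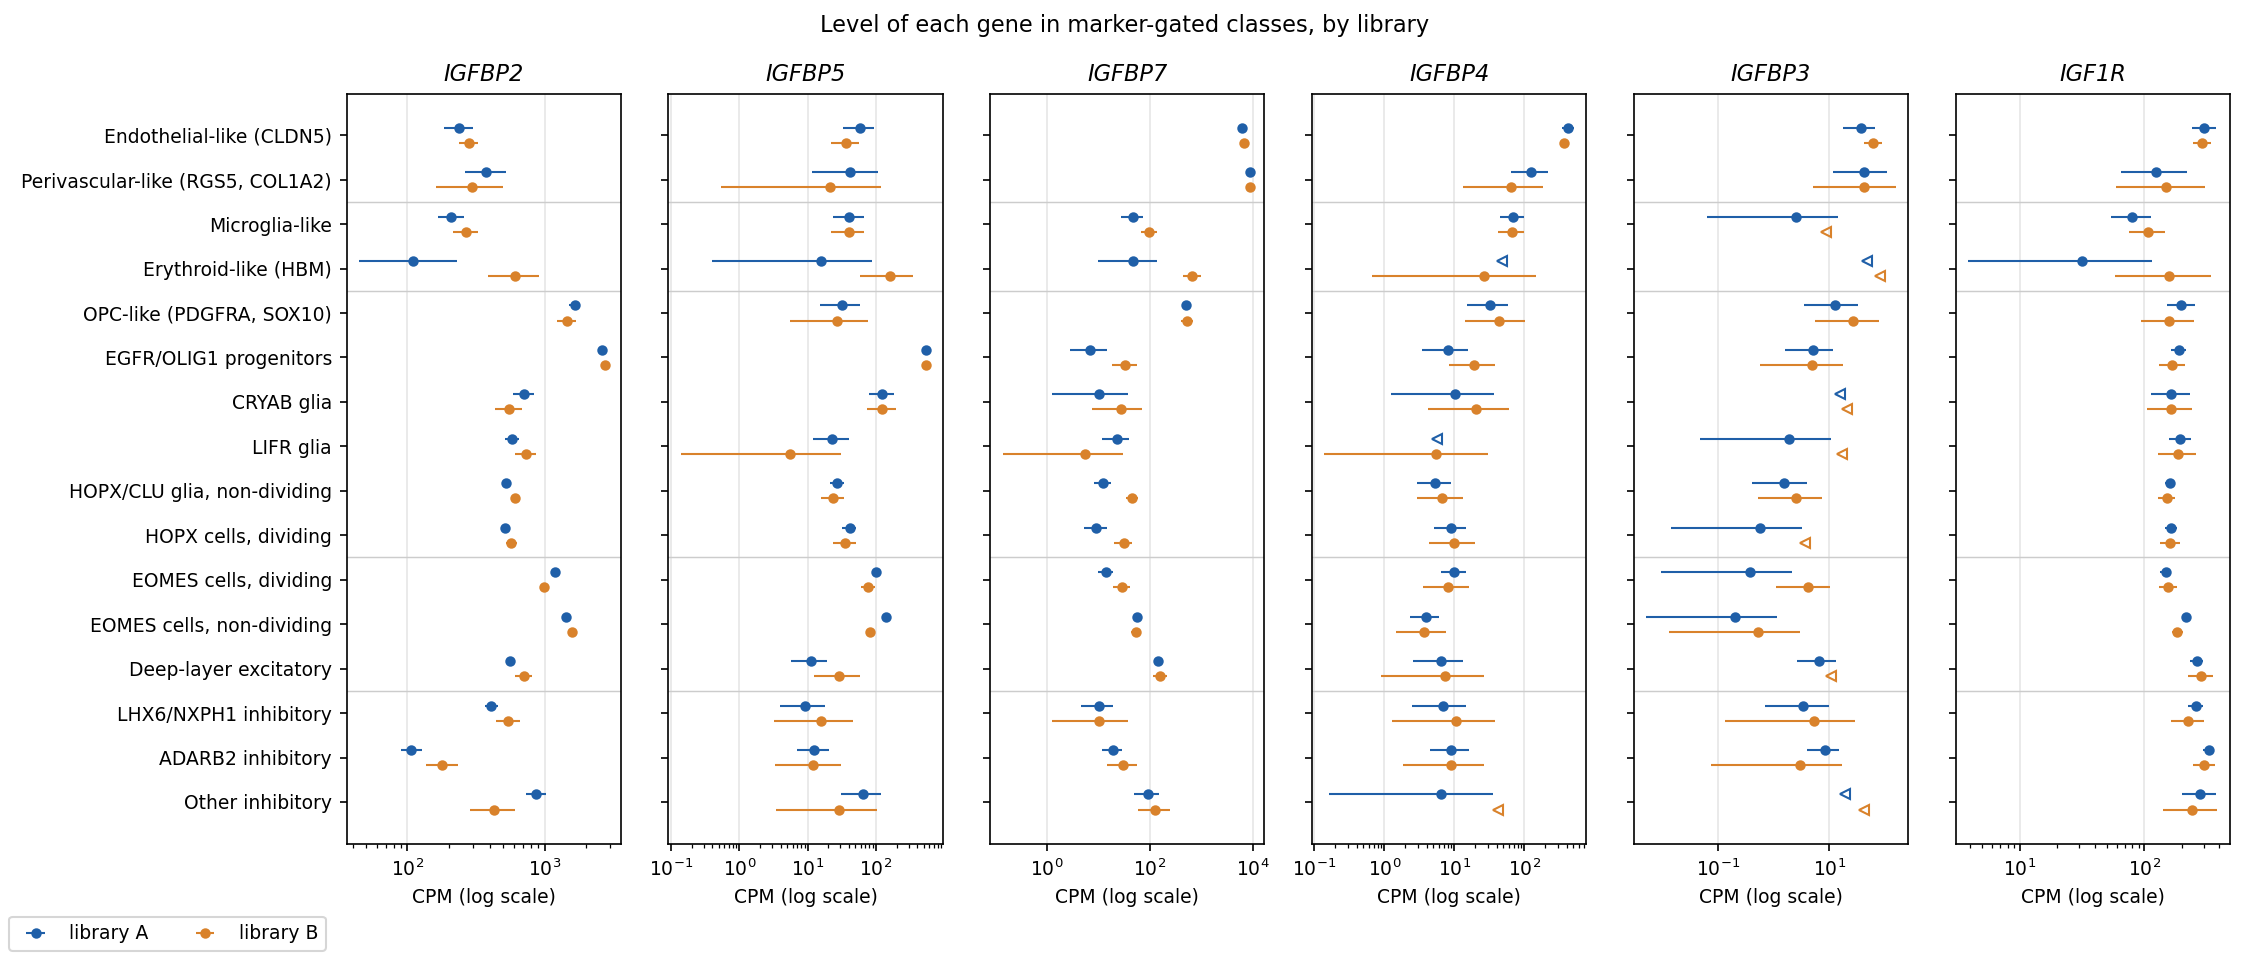
CPM on a log axis for 6 genes by class, with library A in blue and library B in orange; bars are 95% Poisson intervals, and an open triangle marks a class with 0 UMIs, drawn at the level that 3 UMIs would give. IGFBP7 spans the widest range, with 8563 and 8645 CPM in perivascular-like cells, and IGF1R the narrowest of the 6.

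IGFBP2, a binding protein known to be abundant in fetal brain fluid and neural progenitors, was the member detected in the most cells, 79.9% of library A and 78.2% of library B. It was highest in EGFR/OLIG1 progenitors, at 2613 CPM (interval 2514 to 2715) in library A and 2747 CPM (2590 to 2911) in library B, a mean of 2680 ± 94.8 CPM (SD, n = 2 libraries). Cells like oligodendrocyte precursors followed at 1656 and 1454 CPM in libraries A and B, and non-dividing EOMES cells at 1426 and 1593 CPM. The values of these last classes overlap, so their order is not resolved, while both values of the EGFR/OLIG1 progenitors lay above every other class. EOMES is a gene of intermediate progenitors that make excitatory neurons. Of the non-dividing EOMES cells, 235 of 1079 and 103 of 477 held a UMI of the neuronal gene NEUROD6, so the class may also hold young neurons.

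Along the excitatory lineage IGFBP2 was high in EOMES cells and lower on both sides of them. Dividing HOPX cells had 513 and 573 CPM in libraries A and B, dividing EOMES cells 1195 and 989 CPM, and non-dividing EOMES cells 1426 and 1593 CPM. Deep-layer excitatory cells had 564 and 709 CPM. Within the non-dividing EOMES cells, those with a UMI of the neuronal gene NEUROD6 had 1094 and 1133 CPM of IGFBP2, against 1547 and 1748 CPM in those without one. LHX6/NXPH1 inhibitory cells were lower than the deep-layer cells, with 410 and 546 CPM. ADARB2 inhibitory cells had 107 and 181 CPM, the lowest mean of the 18 classes. Inhibitory cells with no UMI of LHX6, NXPH1 or ADARB2 had 868 and 425 CPM, from 134 and 30 UMIs. These values lay on both sides of those of the deep-layer cells.

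The share of cells with a UMI of IGFBP2 was likewise lowest in ADARB2 cells. Thinned, it stood at 13.98% and 16.7% in libraries A and B (23.9% and 26.6% unthinned, at median depths of 2685.5 and 2424 UMIs). The thinned share in EGFR/OLIG1 progenitors was 91.6% and 94.2% (98.3% and 98.9% unthinned, at median depths of 5018 and 4016 UMIs). Microglia-like cells had 209 and 267 CPM and endothelial-like cells 238 and 280 CPM of IGFBP2. The same microglia-like cells carried 2613 and 4518 CPM of FABP7, a radial glial gene, and how much of their IGFBP2 was free RNA was not tested.

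IGFBP5, a binding protein that attaches to extracellular matrix, was highest in the same progenitors as IGFBP2, and stood further above the other classes there. EGFR/OLIG1 progenitors had 537 CPM (interval 492 to 584) in library A and 544 CPM (476 to 620) in library B, a mean of 540.5 ± 5.16 CPM (SD, n = 2 libraries). Every other class was at 159 CPM or less, a bound set by the erythroid-like cells of library B. IGFBP5 was also among the 10 genes with the highest fold over all other cells in that class, beside KCNE5, EGFR and OLIG1. CRYAB glia, which carry CRYAB with SOX2 and VIM, came next with 123 CPM in each library, and non-dividing EOMES cells had 139 and 82.8 CPM in libraries A and B. The CRYAB glia and the EOMES cells overlap, and so do most of the classes below them. A UMI of IGFBP5 was found in 73.3% and 70.5% of EGFR/OLIG1 progenitors (thinned 47.6% and 46.6%), against 1.66% and 3.54% of ADARB2 inhibitory cells (thinned 0.889% and 2.42%).

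Expression among the EGFR/OLIG1 progenitors was broad rather than carried by a few cells: the median cell held 2 UMIs of IGFBP5 in library A and 1.5 in library B, and the highest 10% of cells held 34.1% and 40.5% of the UMIs. Dividing cells of this class had 298 and 205 CPM in libraries A and B, against 714 and 702 CPM in non-dividing ones, so IGFBP5 was 2.40-fold and 3.42-fold lower in the dividing cells. IGFBP2 differed less between them, with 2410 and 2273 CPM in dividing and 2793 and 3037 CPM in non-dividing cells.

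In EOMES cells IGFBP5 lay in a smaller share of the cells. Of non-dividing EOMES cells, 79.8% in library A and 84.7% in library B had no UMI of it, and the highest 10% of cells held 81.7% and 84.1% of the UMIs, where the highest 10% held 27.1% and 26.2% for IGFBP2. Cells with at least 2 UMIs of SOX2, a gene of neural stem and progenitor cells, had 336 and 201 CPM of IGFBP5, against 51.9 and 29.4 CPM in those with none. That is 6.47-fold and 6.84-fold higher with SOX2. The libraries differed in level here (139 CPM in A and 82.8 CPM in B over the whole class) but not in the direction of this split. In deep-layer neurons IGFBP5 was low, with 11.01 and 29.1 CPM, from 12 and 8 UMIs.

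**Figure D3:**
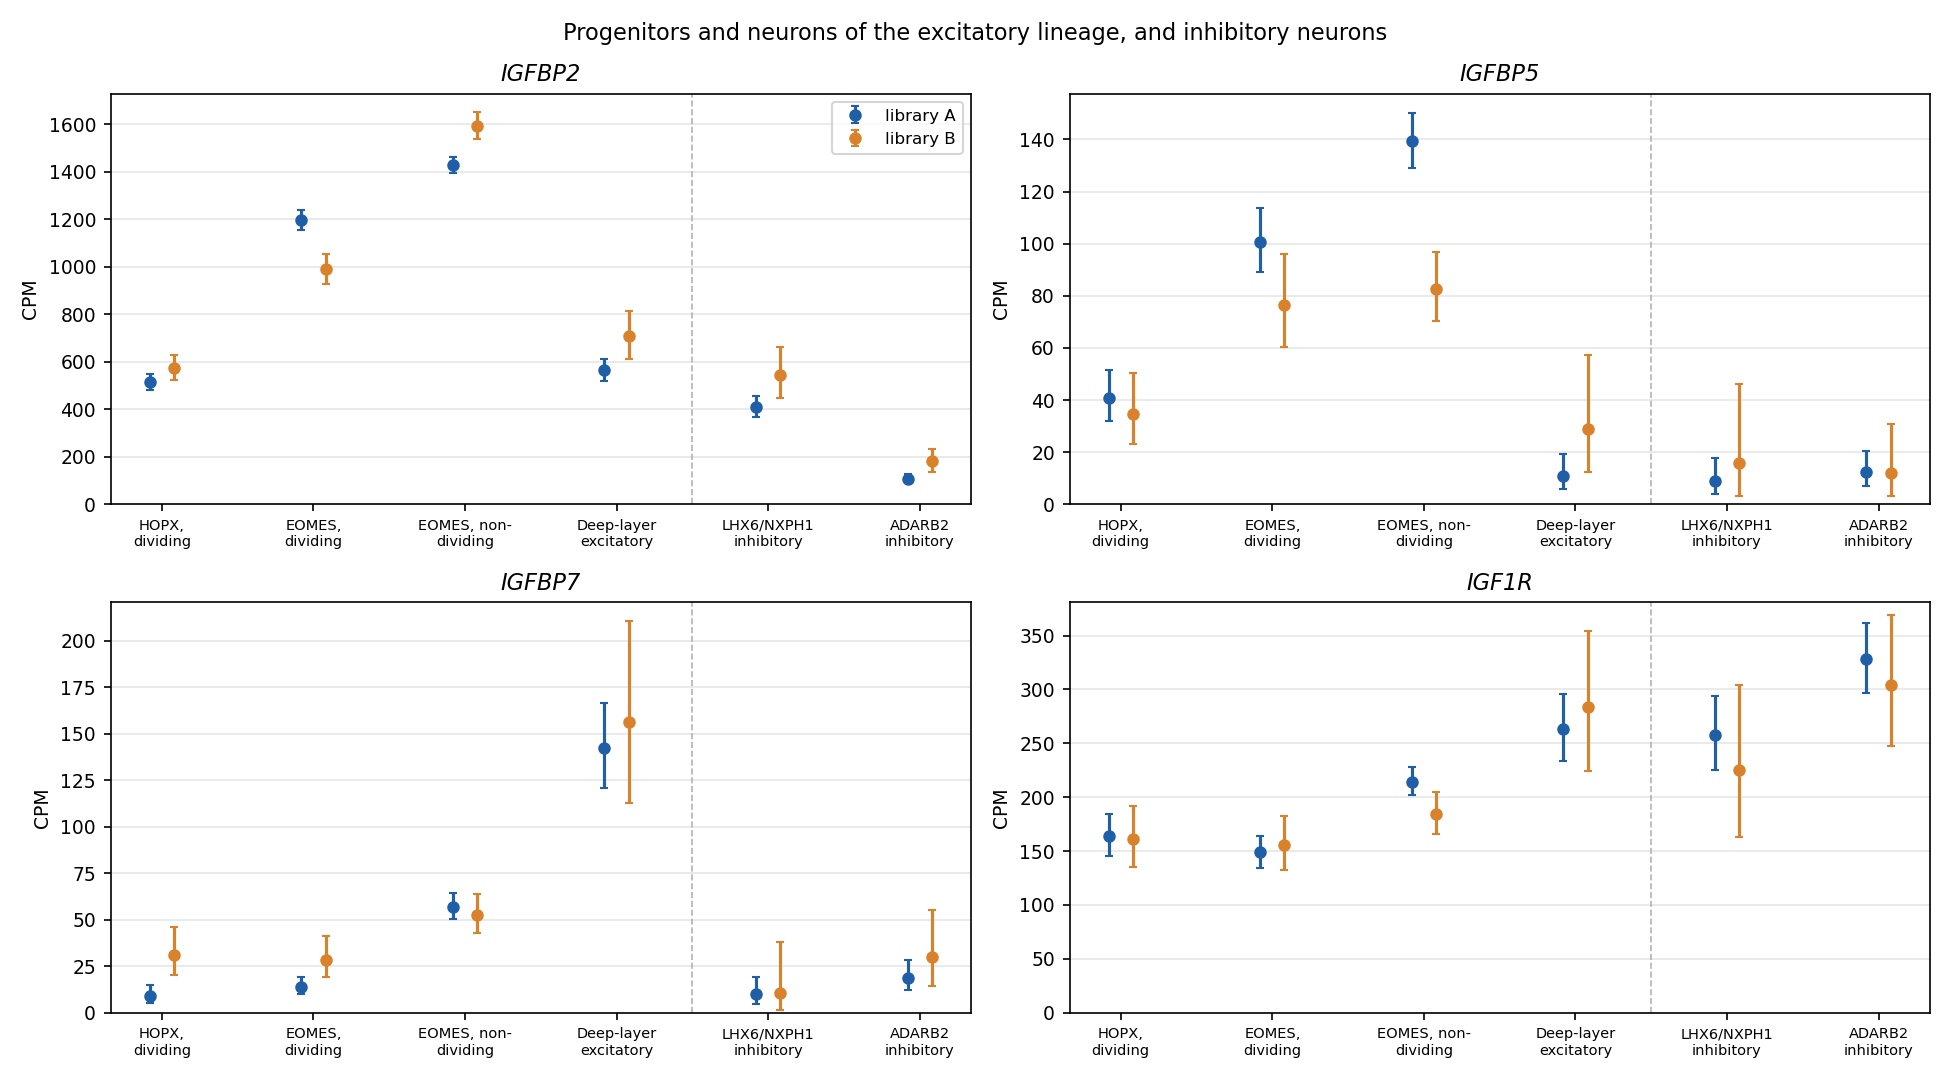
CPM of IGFBP2, IGFBP5, IGFBP7 and IGF1R in progenitors and excitatory cells (left of the dashed line) and inhibitory cells (right), with library A in blue and library B in orange; bars are 95% Poisson intervals. IGFBP2 and IGFBP5 peak in EOMES cells, IGFBP7 is 57.1 and 52.7 CPM in non-dividing EOMES cells and reaches 142 and 156 CPM in deep-layer excitatory cells, and IGF1R is highest in ADARB2 inhibitory cells at 328 and 304 CPM.

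The cells were then split more finely along the oligodendrocyte lineage, in which EGFR and OLIG1 mark early gliogenic progenitors and PDGFRA with SOX10 mark oligodendrocyte precursors. These splits were added after the class levels had been seen. They use UMIs of the 4 marker genes and of HOPX, in cells that passed no gate outside the glial classes. A cell counted as lacking a gene may only have missed its UMI. Cells with EGFR and HOPX but no OLIG1, PDGFRA or SOX10 (99 and 60 cells in libraries A and B) had 210 and 138 CPM of IGFBP5. Cells with EGFR and OLIG1 but no PDGFRA or SOX10 (176 and 88 cells) had 537 and 544 CPM. Cells with EGFR and OLIG1 that also had 1 of PDGFRA and SOX10 (84 and 18 cells) had 385 and 524 CPM, and cells with OLIG1 and 1 of PDGFRA and SOX10 but no EGFR (67 and 39 cells) had 52.5 and 12.1 CPM. Cells with PDGFRA and SOX10 but no EGFR (46 and 19 cells) held 0 UMIs of IGFBP5 among 234873 and 94967 UMIs, where 3 UMIs would give 12.8 and 31.6 CPM. Set at that level, IGFBP5 would be 42.0-fold lower in library A and 17.2-fold lower in library B than in the EGFR/OLIG1 progenitors. These folds are not lower bounds, since the Poisson intervals for 0 UMIs reach 15.7 and 38.8 CPM. The highest values stood in groups with EGFR, but the EGFR/HOPX and EGFR/OLIG1 groups have no counterpart here without EGFR. With 1 of PDGFRA and SOX10, IGFBP5 was higher with EGFR than without it in both libraries. With both genes the cells with EGFR were few and had 127 and 162 CPM. In library B their interval (33.4 to 473 CPM) overlaps that of the cells without EGFR (0 to 38.8 CPM).

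IGFBP7 ran the other way over the same groups. It had 12.6 and 33.2 CPM in the EGFR and HOPX cells, 7.0 and 33.6 CPM in the EGFR/OLIG1 progenitors, and 72.2 CPM in library A with 0 UMIs in library B in the EGFR cells that had 1 of PDGFRA and SOX10. Without EGFR it reached 309 and 544 CPM with 1 of PDGFRA and SOX10, and 647 and 621 CPM with both. Cells with PDGFRA, SOX10 and EGFR together were few (11 and 3 cells): they had 127 and 162 CPM of IGFBP5, from 10 and 3 UMIs, and 89.1 and 53.9 CPM of IGFBP7, from 7 and 1 UMIs. IGFBP2 changed less: 760 and 828 CPM in the EGFR and HOPX cells, 2613 and 2747 CPM in the EGFR/OLIG1 progenitors, 2684 and 2740 CPM in the EGFR cells with 1 of PDGFRA and SOX10, 1622 and 1800 CPM in those without EGFR, and 1494 and 1285 CPM in cells with PDGFRA and SOX10 but no EGFR. In the whole class of cells like oligodendrocyte precursors, the other marker of the lineage, OLIG2, had 399 and 273 CPM, against 281 and 242 CPM in EGFR/OLIG1 progenitors.

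**Figure D4:**
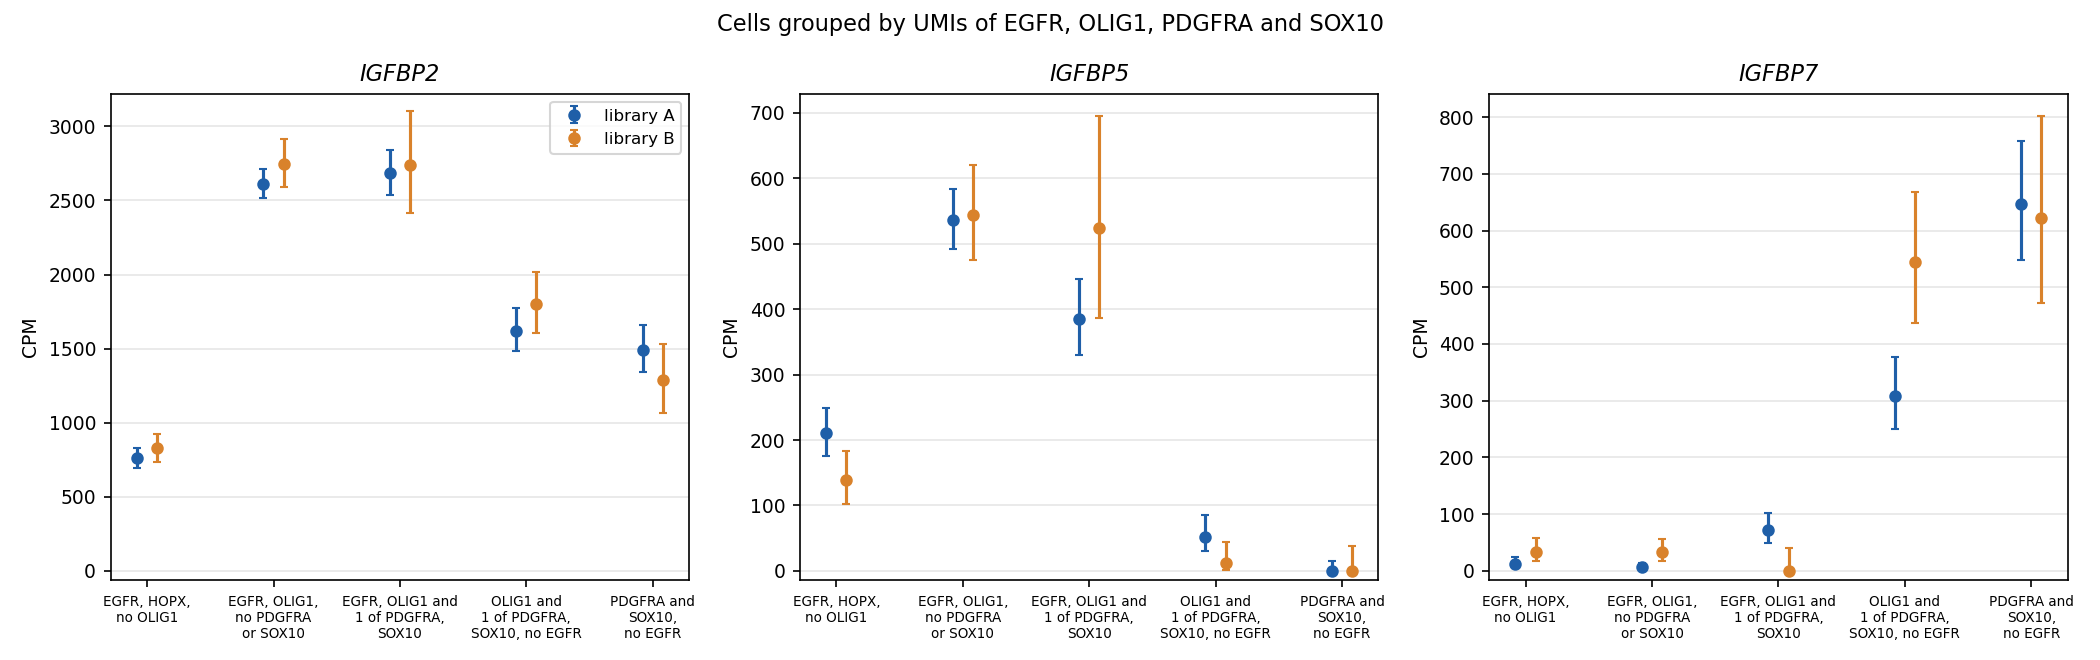
CPM of IGFBP2, IGFBP5 and IGFBP7 in 5 groups of cells defined by UMIs of EGFR, HOPX, OLIG1, PDGFRA and SOX10. The groups are ordered by these marker genes, and their order in time was not tested. Cells with PDGFRA, SOX10 and EGFR together are not drawn. Cells that passed a gate outside the glial classes are left out. Library A is in blue and library B in orange, and bars are 95% Poisson intervals. IGFBP5 is 537 and 544 CPM in EGFR/OLIG1 progenitors and has 0 UMIs in the last group, where IGFBP7 is 647 and 621 CPM.

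IGFBP7 was the member with the widest range, 834-fold between the means of its highest and lowest classes. Perivascular-like cells (25 and 17 cells), gated on mural genes such as RGS5 or on fibroblast collagens and DCN, had 8563 and 8645 CPM in libraries A and B, and endothelial-like cells had 6118 and 6753 CPM. Every endothelial-like cell held at least 1 UMI of IGFBP7 (94 of 94 and 214 of 214 cells), with a median of 11 per cell in each library. The perivascular values came mostly from cells that passed by collagen genes or DCN, which had 10930 and 10840 CPM (15 and 10 cells), against 1941 and 3128 CPM in cells that passed by mural genes only (10 and 7 cells). The mural-gene cells also carried 1109 CPM of IGFBP2 in library A, from 28 UMIs of which 16 lay in 1 cell, and 372 CPM in library B, from 5 UMIs. The collagen or DCN cells had 113 and 267 CPM of it, from 8 and 9 UMIs. In library B the intervals overlap (121 to 869 CPM and 122 to 506 CPM). Mural and fibroblast gates were merged and the mural gate tightened after member levels had been seen: mural cells alone were too few for the fit, and cells of the earlier mural gate had high IGFBP2 and high SLC1A3, a glial gene. The perivascular values therefore depend on a gate that was set with a member's level in view.

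Outside vessels, IGFBP7 had its next highest class mean in the cells like oligodendrocyte precursors. They had 507 CPM (159 UMIs) in library A and 529 CPM (60 UMIs) in library B, with UMIs in 61.4% and 68.2% of cells (thinned 41.2% and 47.4%). CLDN5, a tight junction gene that the endothelial gate requires, had 0 and 1 UMIs in the same cells. Cells that also passed the endothelial gate had been left out, so a low CLDN5 count is partly set by the gates. In endothelial-like cells there were 2.05 and 2.20 UMIs of IGFBP7 per UMI of CLDN5. In perivascular-like cells there were 91.1 and 12.4, so CLDN5 does not track IGFBP7 RNA of those cells. The source of the IGFBP7 RNA in the precursor-like cells was not tested. Deep-layer excitatory cells had 142 and 156 CPM of IGFBP7, from 155 and 43 UMIs, beside 0 and 6 UMIs of CLDN5. HOPX/CLU glia had 12.3 and 45.6 CPM of IGFBP7, from 32 and 54 UMIs, beside 12 and 14 UMIs of CLDN5. EGFR/OLIG1 progenitors had 7 and 14 UMIs of IGFBP7 beside 4 and 10 UMIs of CLDN5. In both classes IGFBP7 was higher in library B, and in LIFR glia, with 12 and 1 UMIs, it was higher in library A. The part of free RNA in these low levels was not tested.

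Within the excitatory lineage IGFBP7 was higher in deep-layer neurons than in EOMES cells, where IGFBP2 was lower in the neurons. It had 14.02 and 28.6 CPM in dividing EOMES cells, 57.1 and 52.7 CPM in non-dividing EOMES cells and 142 and 156 CPM in deep-layer cells. The libraries of these 3 classes did not overlap. LHX6/NXPH1 inhibitory cells had 10.1 and 10.5 CPM and ADARB2 inhibitory cells 19.0 and 30.1 CPM, below the deep-layer neurons in both libraries, but inhibitory cells with no UMI of LHX6, NXPH1 or ADARB2 had 90.7 and 128 CPM, from 14 and 9 UMIs. The thinned share was 16.2% and 19.7% in deep-layer excitatory cells (33.6% and 36.1% unthinned, median depths 3908.5 and 3273 UMIs), against 1.24% and 1.71% in LHX6/NXPH1 inhibitory cells (2.64% and 3.39% unthinned, median depths 3198 and 2815 UMIs).

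IGFBP4, a binding protein that inhibits IGF action until PAPPA cuts it, marked endothelial-like cells, with 423 and 373 CPM in libraries A and B (398 ± 35.3 CPM, SD, n = 2 libraries). It was present in 58.5% and 47.7% of these cells (thinned 41.2% and 36.8%). Perivascular-like cells had 125 and 63.6 CPM, from 12 and 3 UMIs, and microglia-like cells 68.9 and 66.1 CPM. Cells like oligodendrocyte precursors had 31.9 and 44.1 CPM, from 10 and 5 UMIs, and every remaining class was below 27 CPM. The order of perivascular-like and microglia-like cells is not resolved, since their libraries overlap. Endothelial-like cells held 117 and 196 UMIs of IGFBP4 beside 826 and 1617 UMIs of CLDN5, and microglia-like cells held 27 and 23 UMIs of IGFBP4 beside 3 and 9 UMIs of CLDN5.

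IGFBP3, the main carrier of IGFs in serum, was scarce, with 102 and 127 UMIs in all of libraries A and B. Endothelial-like cells had 36.1 and 60.9 CPM, from 10 and 32 UMIs, and perivascular-like cells 41.8 and 42.4 CPM, from 4 and 2 UMIs, with no resolved order between them. Cells like oligodendrocyte precursors had 12.8 and 26.4 CPM, from 4 and 3 UMIs. The 15 other classes were below 9 CPM in both libraries, and CRYAB glia held 0 UMIs, where 3 UMIs would give 15.4 and 20.5 CPM.

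IGF1R, the receptor, was detected in every class and differed by 3.41-fold between the highest and lowest class means. ADARB2 inhibitory cells had 328 and 304 CPM in libraries A and B, endothelial-like cells 303 and 293 CPM, and deep-layer excitatory cells 263 and 284 CPM. HOPX/CLU glia had 161 and 151 CPM, dividing EOMES cells 149 and 156 CPM, and microglia-like cells 79.1 and 106 CPM. The deep-layer and inhibitory neurons spanned 226 to 328 CPM and the EOMES cells, other progenitors and glia 149 to 214 CPM. Most neighbours in the order overlap. Between the oligodendrocyte steps the IGF1R values overlapped, with 198 and 159 CPM in cells like oligodendrocyte precursors and 189 and 168 CPM in EGFR/OLIG1 progenitors. Thinned shares ranged less than for the binding proteins, from 37.7% and 40.7% in ADARB2 inhibitory cells to 13.95% and 20.1% in microglia-like cells.

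Of the ligands, IGF2 was almost absent, while IGF1 was measurable in a few classes. IGF2, a ligand known in rodents from the meninges and choroid plexus, had 7 UMIs in all, 3 in library A and 4 in library B, of which 3 lay in cells that passed several gates in library B. Its level in any class was not measurable at this depth. IGF1 (207 UMIs in 127 cells), the other ligand, was highest in microglia-like cells, with 120 and 77.6 CPM in libraries A and B from 47 and 27 UMIs. LHX6/NXPH1 inhibitory cells had 16.9 and 15.7 CPM of IGF1 and ADARB2 inhibitory cells 23.1 and 6.02 CPM, and perivascular-like cells held 5 and 0 UMIs. HOPX/CLU glia held 0 UMIs of it, among 2609038 and 1183425 UMIs. Insulin itself (INS), the receptor relative INSRR, IGFBP1 and IGFALS had no UMI.

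The remaining receptors and regulators were low. INSR, the insulin receptor, had 57.8 and 60.9 CPM in endothelial-like cells and 34.5 and 25.4 CPM in HOPX/CLU glia. IGF2R, which clears IGF2 from the cell surface, had 15.7 and 12.7 CPM in HOPX/CLU glia and 22.3 and 25.3 CPM in non-dividing EOMES cells. PAPPA, the protease that cuts IGFBP4, had 143 UMIs and was highest in glia, with 13.4 and 7.61 CPM in HOPX/CLU glia, against 0.619 and 0.527 CPM in non-dividing EOMES cells. STC2, an inhibitor of PAPPA, had 5 UMIs. IGFBP6, a binding protein that prefers IGF2, had 388 UMIs and at most 18.03 CPM in any class with 10 or more UMIs.

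The genes closest in pattern to each member were found by the Pearson correlation of log2(CPM + 1) over the 18 classes, using the mean of the libraries, among 7480 genes. These are descriptions: the points share libraries, depth and gates, and classes of 1 lineage are not independent. IGFBP7 was nearest to LEF1 (r = 0.91), CDC42EP5 (0.90) and COL4A1 (0.90), a basement membrane collagen. IGFBP4 was nearest to OCLN (0.93), a tight junction gene, and MBNL1 (0.92). IGFBP3, with 102 and 127 UMIs in all, was nearest to STIM2 (0.87, and 0.52 and 0.59 in libraries A and B alone), AFAP1L2 (0.85) and JCAD (0.85). IGFBP2 was nearest to KCNIP3 (0.85, and 0.69 and 0.65 in libraries A and B alone), NMD3 (0.83) and ATP5F1B (0.82), and IGFBP5 to E2F1 (0.79), a regulator of entry into DNA replication, DUSP10 (0.78) and TFDP2 (0.75). IGF1R was nearest to CDH2 (0.89), which encodes N-cadherin, STRN3 (0.87) and STOX2 (0.87). Within 1 library r was lower for all of these neighbours, except CDH2 and STRN3 in library A (0.96 and 0.88). The lowest was 0.44, for TFDP2 in library A. Among members, IGFBP3, IGFBP4 and IGFBP7 had r between 0.68 and 0.72 with each other, and IGFBP2 with IGFBP5 had r = 0.47.

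The rest of the pathway was tested with 2 lists that hold no member: 46 genes of IGF signalling and 12 relatives that share the IGF binding protein domain. Of these 58 genes, 39 passed the filter on low counts. Then 5 comparisons of classes were made in 1 edgeR quasi-likelihood fit over UMI sums of 18 classes in 2 libraries, with Benjamini-Hochberg adjustment over 11173 genes at a threshold of 0.05. Differences below are log2 fold changes from that fit, while levels stay in CPM. The lists were chosen with earlier results of these data known, and their shares are set beside that of all genes tested.

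Non-dividing HOPX/CLU glia were set against non-dividing EOMES cells, glia against cells of the excitatory lineage. In this comparison 50.3% of all genes tested were called, and 24 of the 39 list genes were called, 14 higher and 10 lower in glia. The median log2 fold change of the list was 0.02, against -0.01 for all genes. HTRA1, a protease that cuts IGF binding proteins, had 147 and 163 CPM in glia, against 6.19 and 7.91 CPM in EOMES cells (log2 fold change 4.47, SE 0.20, edgeR adjusted p = 1.93e-31). CCN1, a matrix protein of the binding protein domain family, had 42.5 and 44.8 CPM in glia, against 1.86 and 4.22 CPM in EOMES cells (4.02). ADAM12, another protease known to cut IGF binding proteins, had 65.2 and 48.2 CPM, against 7.01 and 4.75 CPM (3.21). CCN4 had 108 and 87.9 CPM in glia, against 9.69 and 14.8 CPM in EOMES cells (3.15). CCN2 was called higher in glia from only 7 and 1 UMIs, against 1 and 0 UMIs in EOMES cells.

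The genes lower in glia were led by IGFBPL1, a secreted relative of the binding proteins, which had 15.7 and 29.6 CPM in glia, against 501 and 488 CPM in EOMES cells (log2 fold change -4.60, SE 0.17, edgeR adjusted p = 5.73e-37). Also lower in glia were PIK3CA, a catalytic subunit of phosphoinositide 3-kinase (-0.87), RICTOR, a subunit of an mTOR complex (-0.81), and the transcription factor gene FOXO3 (-1.045). Other signalling genes were called higher in glia, among them FOXO1 (2.62), GAB1 (1.16), GRB10 (1.11), RHEB (0.61) and IRS2 (0.55), so the signalling genes had no common direction. INSR was not called (adjusted p = 0.96 with edgeR). IGF2R was called lower in glia (log2 fold change -0.66, edgeR adjusted p = 0.027), but neither with size factors of DESeq2 in the same fit (adjusted p = 0.11) nor with the DESeq2 Wald test (0.17). Member levels in the same classes were 522 and 608 CPM of IGFBP2 in glia, against 1426 and 1593 CPM in EOMES cells, a difference of -1.45 in library A and -1.39 in library B on the log2(CPM + 1) scale. For IGFBP5 the difference was -2.34 and -1.76 on that scale.

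Endothelial-like cells were set against the HOPX/CLU glia. Of all genes tested 40.4% were called, and of the list 21 of 39, 16 higher and 5 lower in endothelial-like cells, with a list median of 0.38 and a median of 0.05 for all genes. GRB10, an adaptor that dampens insulin and IGF receptors, had 379 and 278 CPM in endothelial-like cells, against 22.2 and 11.8 CPM in glia (log2 fold change 4.18, SE 0.21, edgeR adjusted p = 4.94e-28). CCN2, a matrix protein related to CCN1, was higher, with 50 and 25 UMIs in endothelial-like cells, against 7 and 1 UMIs in glia (edgeR adjusted p = 6.03e-16). SHC1, an adaptor of receptor tyrosine kinases, had 57.8 and 32.3 CPM, against 5.37 and 7.61 CPM (2.79). INSR, FOXO1, FOXO3 and PIK3CA were also higher in endothelial-like cells. Lower genes included CCN4, with 3 and 0 UMIs in endothelial-like cells, against 282 and 104 UMIs in glia. HTRA3 was called higher from 6 and 1 UMIs, against 0 and 0 UMIs in glia, and not called by DESeq2 (adjusted p = 0.57), while IGF2BP1 was called higher from 8 and 8 UMIs, against 0 and 1 UMIs in glia. IGF1 was called higher (edgeR adjusted p = 0.0056) from 0 and 4 UMIs, against 0 and 0 UMIs in glia, so 1 library decides it, and neither stricter gates (adjusted p = 0.11) nor DESeq2 (0.054) kept the call.

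IGFBPL1 was called higher in endothelial-like cells too, with 72.2 and 112 CPM, against 15.7 and 29.6 CPM in glia. Microglia-like cells had 61.3 and 104 CPM of it, close to the endothelial-like cells, and the part of free RNA in this call was not tested. The members IGFBP3, IGFBP4 and IGFBP7 had differences of 3.87 and 4.13, 6.06 and 5.59, and 8.85 and 7.18 on the log2(CPM + 1) scale in libraries A and B for the same classes.

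CRYAB glia were set against HOPX/CLU glia, a comparison between glial classes in which 4.5% of all genes were called. Of the list, 2 of 39 genes were called, near the share of all genes, with a list median of -0.02 and a median of -0.11 for all genes. ADAM12 was higher in CRYAB glia, with 231 and 171 CPM, against 65.2 and 48.2 CPM in HOPX/CLU glia (log2 fold change 1.66, SE 0.25, edgeR adjusted p = 1.17e-06). IGF2BP2, which encodes an RNA-binding protein that binds IGF2 mRNA in mammals, was lower, with 66.8 and 75 CPM, against 131 and 124 CPM (-1.02, adjusted p = 0.016), and this call was lost with DESeq2 (0.073) and with stricter gates (0.28). IGFBP5 had 123 and 123 CPM in CRYAB glia, against 26.8 and 23.7 CPM in HOPX/CLU glia, a difference of 2.16 in library A and 2.33 in library B on the log2(CPM + 1) scale. IGFBP2 had no common direction, at 704 and 552 CPM in CRYAB glia, against 522 and 608 CPM in HOPX/CLU glia.

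Cells like oligodendrocyte precursors were set against EGFR/OLIG1 progenitors, where 12.4% of all genes were called. Of the list 4 of 39 were called, 10.3% of the list, with a list median of -0.14 and a median of -0.04 for all genes. PIK3R1, a regulatory subunit of phosphoinositide 3-kinase, was higher, with 191 and 96.9 CPM in the precursor-like cells, against 65.0 and 57.5 CPM in the progenitors (log2 fold change 1.31, SE 0.26, edgeR adjusted p = 1.01e-04). HTRA1 was higher, with 140 and 203 CPM, against 56.98 and 83.9 CPM (1.20), and so was GAB1, a docking protein of receptor tyrosine kinases, with 160 and 167 CPM, against 91.0 and 91.1 CPM (0.75), though not without the filter on low counts (edgeR adjusted p = 0.090). IRS2, an insulin receptor substrate, was lower, from 7 and 0 UMIs in the precursor-like cells, against 44 and 22 UMIs in the progenitors (edgeR adjusted p = 0.033). Its call was lost under 4 alternatives, with adjusted p between 0.056 and 0.13. The member IGFBP5 differed by -4.03 and -4.31 and the member IGFBP7 by 5.99 and 3.94 on the log2(CPM + 1) scale in libraries A and B. That scale is not the scale of the fit, and members were chosen with their levels known, so these values are not ranked against the list.

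Perivascular-like cells were set against endothelial-like cells, where 5.62% of all genes were called and 4 of 39 list genes were, 2 in each direction, with a list median of -0.16 and a median of -0.28 for all genes. With stricter gates, which leave 13 perivascular-like cells in each library, 10 list genes were called (25.6% of the list), beside 8.56% of all genes under the same gates. ADAM12 was higher in perivascular-like cells, with 167 and 127 CPM, against 28.9 and 28.5 CPM in endothelial-like cells (log2 fold change 2.16, SE 0.49, edgeR adjusted p = 0.0014). CCN2 was higher, with 324 and 254 CPM, against 181 and 47.5 CPM (1.30, adjusted p = 0.040), and this call was lost with DESeq2 (0.16). GRB10 was lower, with 3 and 0 UMIs in perivascular-like cells, against 105 and 146 UMIs in endothelial-like cells, and FOXO1, a transcription factor restrained by AKT, was lower from 1 and 1 UMIs, against 21 and 36 UMIs. The FOXO1 call (adjusted p = 0.046) was lost under 4 alternatives, among them the fit without the library block (adjusted p = 0.062). IGFBP4 had 125 and 63.6 CPM in perivascular-like cells, against 423 and 373 CPM in endothelial-like cells, and IGF1R 125 and 148 CPM, against 303 and 293 CPM.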

How the data were processed

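The deposited matrix gives UMI counts, as whole numbers, for each gene in each cell. The authors used Cell Ranger, according to the submitters' processing notes. Its version, the build and any filter on cells are not given in the sources. Of the gene names with a UMI, 21231 (99.6%) matched RefSeq symbols of assembly ASM1176430v1.1, used for names only. Each cell has at least 1501 UMIs.

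A filter of 500 genes or more and no more than 10% mitochondrial UMIs per cell removed 14 cells. Scrublet in scanpy 1.11.5 called 0 and 1 doublets in libraries A and B, too few to have worked, so cells that passed gates of several compartments were left out instead, and the removal of 485 cells with a score above 0.2 was an alternative. Gates needed set numbers of marker UMIs (for example CLDN5 with at least 3 endothelial markers, PDGFRA with SOX10, EGFR with OLIG1 and neither PDGFRA nor SOX10, HOPX with CLU and at most 1 marker of division). UMIs were summed per class and library. Sums of classes with at least 10 cells in each library entered 1 edgeR 4.0.16 fit (R 4.3.3) of 36 sums with 17 residual degrees of freedom, blocked by library, scaled by TMM and filtered by filterByExpr, with gate markers left out of the adjustment. The same libraries give every class, so p-values measure only how class differences vary between these 2 libraries and across classes. DESeq2 1.42.0 was an alternative. The edgeR step was tested on simulated counts. Thinned shares are hypergeometric expectations.

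The members, the lists and the comparisons were chosen with earlier results of these data known. Named list genes are, per comparison, the up to 6 called genes with the largest fold change and the same sign in both libraries, and IGF1, INSR, IGF2R, PAPPA, STC2 and IGFBP6. Genes outside this rule that are named were chosen after their values were seen. Results of some genes and excitatory classes are not reported here. Counting intervals cover counting error only.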

Additional observations from a re-analysis of the deposited data

How the results depend on the processing

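Over 7 alternatives (DESeq2 size factors, no filter on low counts, no replicate block, the DESeq2 Wald test, stricter gates, high doublet scores left out, no cell filter), the count of list genes called moved by more than 1.5 times in 2 cases. In CRYAB glia against HOPX/CLU glia it was 1 with the DESeq2 Wald test, against 2. In perivascular-like against endothelial-like cells it was 10 with stricter gates, against 4, while the share of all genes called was 8.56%, against 5.62%, and the cause was not tested. Of 385 values of the 55 list-gene calls under these alternatives, 361 kept direction and call, 24 lost the call and 0 reversed. With each library alone no residual degrees of freedom remain, so no test was made; 109 of 110 values kept their direction, the exception being IGF1 in endothelial-like cells of library A, with 0 UMIs. Without the replicate block the FOXO1 call in perivascular-like cells was lost (adjusted p = 0.062) and no other. DESeq2 size factors moved the median log2 fold change of all genes by 0.16 in HOPX/CLU glia against EOMES cells (64.1% of calls higher, against 51.6%) and by 0.19 in perivascular-like against endothelial-like cells (58.9%, against 41.1%). For cells like oligodendrocyte precursors against EGFR/OLIG1 progenitors the share of higher calls was 64.3%, against 53.7%. A member's highest class was kept in 36 of 42 cases. IGFBP3 was highest in perivascular-like cells with stricter gates (105 CPM), as a mean over cells (56.8 CPM) and in library A alone (41.8 CPM), IGF1R in deep-layer excitatory cells with stricter gates (324 CPM), and the 2 other cases were IGF2, with 7 UMIs. Depth limits IGF2 and IGFBP3 in every class and the perivascular-like class (25 and 17 cells) for all genes.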

Other observations

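Some cells left out of the classes carried endothelial and perivascular markers together, 19 in library A and 97 in library B. They had 9644 and 7049 CPM of IGFBP7, 311 and 388 CPM of IGFBP4 and 97.2 and 172 CPM of IGFBP2. Cells that passed several gates held 19.5% and 35.6% of all IGFBP7 UMIs in libraries A and B, against 3.16% and 7.27% of cells, so the class sums leave out a large part of this gene's RNA, more of it in library B. For IGFBP3 they held 14.7% and 39.4% of UMIs.

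IGFBP2 was uneven among LHX6/NXPH1 inhibitory cells: the median cell held 1 UMI in each library, the highest cell 35 UMIs in library A and 24 in library B. Cells of this class with at least 2 UMIs of SST, the somatostatin gene, had 281 and 174 CPM of IGFBP2 (51 and 4 UMIs), against 449 and 596 CPM in those with none. In the RefSeq gene order of the ferret, IGFBP2 and IGFBP5 are neighbours, IGFBP3 stands beside IGFBP1 and IGF2 beside INS. Of these pairs, both genes had UMIs in the first one only.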
